A study of Mus musculus with 10 samples.

Results

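The 10 genes described here, Tal1, Lyl1, Lmo1, Lmo2, Tlx1, Tlx3, Hhex, Mef2c, Hoxa9 and Erg, encode transcription factors and cofactors known as oncogenes of T cell acute leukaemia, the leukaemia of immature T cells. They were chosen by symbol, each through the probe set that carries that symbol alone. All 10 had exactly 1 such probe set, out of 19937 genes that had at least 1. Of the 10, 6 passed the filter on dim probe sets and were tested for genotype, among 12670 genes tested in all.

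The arrays came from mediastinal T cell lymphomas that arose spontaneously in NPM-ALK transgenic mice of C57BL/6 background by 4 to 5 months of age, with 1 mouse per array. NPM-ALK is the fusion kinase of human anaplastic large cell lymphoma, a tumour of mature T cells, and all 10 mice carried it. WASP, the actin regulator encoded by Was, was intact in 5 mice and missing in 5 (females WASP -/- or males without their single copy), and the study asked how the lymphomas differ without it. The mice were untreated, the sources used here do not name the promoter of the transgene, and RNA was taken from whole tumours, so fewer cells of a type and less RNA per cell cannot be told apart. Throughout, a level is the log2 of the deposited intensity and a difference is WASP-deficient minus WASP-intact.

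Tal1 and Lyl1 encode closely related basic helix-loop-helix proteins that pair with E proteins and bind the E-box, CANNTG. Lmo1 and Lmo2 encode LIM-only proteins, which do not bind DNA themselves and join such pairs to LDB1 and GATA factors. Tlx1, Tlx3, Hhex and Hoxa9 are homeobox genes, Mef2c encodes a MADS-box factor of muscle, endothelium and lymphoid progenitors, and Erg an ETS factor of blood stem cells and endothelium. Several of them work in blood progenitors and are shut down as T cells mature, and in human T cell leukaemia they are switched on by translocations, deletions or new enhancers. Hhex is a known target of LMO2 in thymocytes that carry that oncogene.

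The promoters of 3 members are shown. Lmo1 separated the tumours into 2 sets, and Tal1 and Lyl1 are among several members that varied little. Mef2c, which was high in 1 tumour, belongs to neither kind, and its promoters are not printed. Tal1 and Lyl1 encode related proteins that bind the E-box with E proteins. RefSeq (GRCm38.p6) held promoter windows for 9 of the 10 genes, each 300 bases long, from 250 bases before to 50 bases after a transcript start. Tal1 and Lmo1 have 2 windows each, of which the one listed first as start 1 is printed. The windows of Lmo1, chr7:109175158-109175457 on the minus strand, of Tal1, chr4:115056176-115056475 on the plus strand, and of Lyl1, chr8:84701207-84701506 on the plus strand, read as follows, with matches to 4 motifs in capitals.
Lmo1: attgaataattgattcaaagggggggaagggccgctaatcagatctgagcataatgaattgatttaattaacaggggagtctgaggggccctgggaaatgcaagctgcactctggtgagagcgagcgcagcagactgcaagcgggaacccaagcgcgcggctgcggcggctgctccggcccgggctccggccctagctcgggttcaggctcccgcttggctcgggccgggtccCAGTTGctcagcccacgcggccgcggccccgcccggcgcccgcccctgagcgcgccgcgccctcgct
Tal1: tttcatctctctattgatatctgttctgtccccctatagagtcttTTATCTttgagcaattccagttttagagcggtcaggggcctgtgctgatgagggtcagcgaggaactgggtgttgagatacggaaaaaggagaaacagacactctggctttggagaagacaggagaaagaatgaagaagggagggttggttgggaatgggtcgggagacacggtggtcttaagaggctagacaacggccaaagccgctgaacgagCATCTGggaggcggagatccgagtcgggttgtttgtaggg
Lyl1: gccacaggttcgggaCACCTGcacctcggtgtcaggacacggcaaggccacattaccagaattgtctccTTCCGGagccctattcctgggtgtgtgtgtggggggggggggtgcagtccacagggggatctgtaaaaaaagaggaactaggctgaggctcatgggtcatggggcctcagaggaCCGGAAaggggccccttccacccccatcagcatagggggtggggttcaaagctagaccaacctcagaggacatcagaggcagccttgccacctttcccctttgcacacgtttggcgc

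The motifs searched on both strands were the E-box CANNTG, which TAL1 and LYL1 bind with E proteins, AGATAA for GATA factors, CCGGAA for ETS factors and TGTGGT for RUNX factors. The Lmo1 window held 1 E-box, CAGTTG, that begins 17 bases before the start, and none of the other 3 motifs. The other Lmo1 window, which overlaps it, held 1 E-box too and was 74.3% G and C. The printed Tal1 window had 1 E-box, CATCTG, just inside the transcript at base 11, and 1 GATA match that begins 205 bases before the start, whereas its other window, chr4:115057561-115057860, held none of the 4 motifs and was 64.3% G and C with 22 CpG pairs. Lyl1 had 1 E-box that begins 235 bases before the start and 2 ETS matches, at 181 and 67 bases. Of 32851 promoters of this length, 72.3% held the E-box, 11.2% the GATA motif, 14.9% the ETS motif and 16.8% the RUNX motif, so a match describes the letters and is not a binding site. The printed Lmo1 window was 66.3% G and C with 29 CpG pairs, and that of Tal1 50.7% with 11, against medians of 52.7% and 7 over all promoters.

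The tumours carried T cell transcripts on every array, with Cd3e, a chain of the T cell receptor complex, between 12.06 and 12.59 and the T cell surface gene Thy1 between 11.86 and 12.31. Other T cell genes were low on some arrays, down to 5.26 for Cd3d, 6.29 for Cd3g and 6.14 for Cd28. Was, read first as a check of the labels, lay at 9.22 ± 0.10 on WASP-intact and 8.08 ± 0.13 on WASP-deficient arrays (SD, n = 5 each), a difference of -1.14 (SE 0.084, limma with Benjamini-Hochberg adjustment, adjusted p = 0.00088). The sources used here do not say where its probes lie relative to the deletion. Cd2, whose product helps T cells adhere to other cells, reached 11.18 to 11.52 on 3 arrays (WASP-intact 4 and 5 and WASP-deficient 1, called Cd2-high below) and lay at 6.10 to 6.90 on 7 (Cd2-low), with none between. That split was made on a measured level at a value of 9; it is not a group of the study, so it is described without a test. The arrays were also divided by sex markers, since Xist was at 11.52 to 11.90 on 4 arrays, all WASP-intact, and at 4.40 to 5.58 on 6, which are WASP-intact array 3 and all 5 WASP-deficient arrays. Y-linked genes lay at 5.96 to 10.32 on those 6 arrays and at 3.6 to 5.51 on the other 4. The labels do not give the sex of each mouse. Sex class largely went with genotype, so a genotype difference cannot be fully told apart from a sex difference. Median intensity was alike on all arrays (116.7 to 122.7), and the number of arrays limits the precision.

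The files give no detection call, so a member was called too dim to read when it stayed under the filter value (6.35, the 40th percentile of the means of all probe sets) on all 10 arrays. This held for 4 members, the homeobox genes Tlx1, Tlx3, Hhex and Hoxa9. Tal1, Lyl1, Lmo2 and Erg were over that value on all 10 arrays, Lmo1 on 8 and Mef2c on 4. A level over the value does not by itself show a transcript: of 17 genes made in other organs, such as lens, testis and brain, 6 had a mean over it, and their means ran from 4.10 to 7.51. Y-linked genes on the 4 Xist-high arrays lay between 3.6 and 5.51, another measure of the level without transcript. A change from array to array does not by itself show a transcript of the tumour cells either. Csn2, among those 17 genes, ran from 5.93 to 8.03, with an SD of 0.70 at percentile 94.2 of the genes tested.

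**Figure D1:**
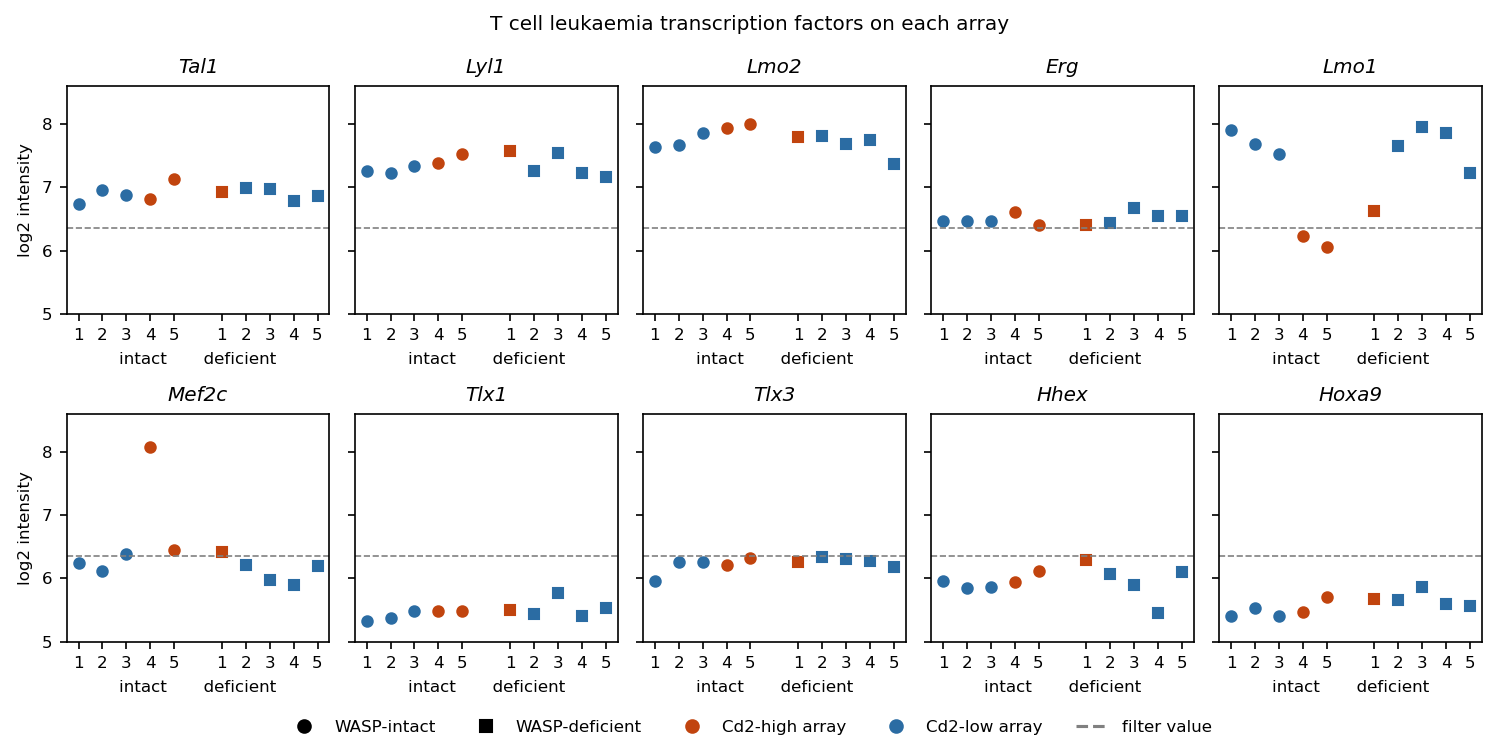
Level of each member on each array, as log2 intensity, with WASP-intact arrays 1 to 5 as circles on the left, WASP-deficient arrays 1 to 5 as squares on the right, Cd2-high arrays in orange and Cd2-low arrays in blue. The dashed line is the filter value of 6.35. Lmo1 is lowest on the 3 Cd2-high arrays, Mef2c stands apart on WASP-intact array 4 at 8.08, and Tlx1, Tlx3, Hhex and Hoxa9 stay under the line.

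Lmo1 was the member with the widest split between tumours that followed Cd2. On WASP-intact arrays 1 to 3 its level was 7.91, 7.69 and 7.52, and on arrays 4 and 5 of that genotype it was 6.23 and 6.05. In the WASP-deficient tumours it was at 6.63 on array 1 and at 7.65, 7.96, 7.85 and 7.22 on arrays 2 to 5. The 3 low arrays are the 3 Cd2-high ones in both genotypes, and on WASP-intact arrays 4 and 5 Lmo1 was under the filter value. The nearest arrays of the sets, 6.63 and 7.22, were 0.59 apart (1.51-fold), with a gap of 1.29 within the WASP-intact arrays and of 0.59 within the WASP-deficient ones. That gap was 0.99 without WASP-deficient array 1 and 0.89 without WASP-deficient array 5. Lmo1 passed the filter through its Cd2-low arrays, and its SD over the 10 arrays, 0.71, stood at percentile 94.5 of the genes tested.

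Arrays apart by Cd2 were common among all genes. Of the 12670 tested, 30.5% had Cd2-high arrays that did not overlap the Cd2-low ones, and 16.1% did so with the Cd2-high arrays lower, as Lmo1 did. A gap at least as wide as that of Lmo1 in the lower direction was seen for 2.48%, and in either direction for 5.44%. Among the 6 tested members 2 did not overlap, Lmo1 and Mef2c, which is 33.3% and close to that background; over all genes without the filter 21.7% did not, and of the 10 members the same 2. Mef2c was higher on the Cd2-high arrays, as 14.4% of all genes were, by a gap of only 0.03 (6.42 on the lowest Cd2-high array, 6.39 on the highest Cd2-low one), and it closed when each array was centred on its median.

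Lmo2, the other LIM-only gene, known from leukaemias in which a gene therapy vector had switched it on, did not share that split. Its level was 7.64, 7.66, 7.86, 7.94 and 8.0 in WASP-intact tumours 1 to 5, and 7.80, 7.81, 7.68, 7.74 and 7.36 in WASP-deficient tumours 1 to 5. The Cd2-high arrays, at 7.80 to 8.0, were among the higher ones and overlapped the Cd2-low arrays, at 7.36 to 7.86. Without WASP-deficient array 1 the remaining Cd2-high arrays lay above all Cd2-low ones. Its SD of 0.18 stood at percentile 41.8.

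Tal1 was nearly level over the tumours. Its values were 6.73, 6.95, 6.87, 6.82 and 7.13 on WASP-intact arrays 1 to 5 and 6.92, 6.99, 6.98, 6.79 and 6.86 on WASP-deficient arrays 1 to 5. Both genotypes and both Cd2 sets overlapped, and the SD of 0.11 was at percentile 12.2 of the genes tested. Lyl1, its relative, was at 7.26, 7.23, 7.33, 7.38 and 7.53 in the WASP-intact tumours and at 7.57, 7.25, 7.54, 7.22 and 7.16 in the WASP-deficient ones. Its Cd2-high arrays, at 7.38 to 7.57, lay in the upper part of the range and overlapped WASP-deficient array 3, which was Cd2-low, at 7.54. Within each genotype the Cd2-high arrays lay above the rest, by 0.05 in WASP-intact (2 arrays against 3) and 0.03 in WASP-deficient tumours (1 against 4). The share of all genes that did so was not counted. Erg varied least, from 6.40 to 6.67, just over the filter value on all arrays, with an SD of 0.09 at percentile 4.22.

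Mef2c was high in 1 tumour. Its level was 6.24, 6.11, 6.39 and 6.45 in WASP-intact tumours 1, 2, 3 and 5, against 8.08 on WASP-intact array 4 and 6.42, 6.21, 5.97, 5.90 and 6.19 on WASP-deficient arrays 1 to 5. Array 4 was 1.63 above the next array, whereas 0.955% of all genes had 1 array at least 1 above the next, and without it the mean was 6.21, under the filter value, so Mef2c was tested only because of that tumour. Muscle genes were high on the same array: 7 of 12 were at least 1 above every other array there. Acta1, skeletal muscle actin, was at 11.59 against 6.92 to 7.19, Ckm, muscle creatine kinase, at 10.95 against 7.08 to 7.28, and Myl1, a skeletal myosin light chain, at 10.84 against 4.62 to 5.12. The heart genes Myh6 and Nppa were not high, at 5.91 and 6.73 against 5.88 to 6.48 and 6.38 to 6.95.

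The summed intensity of the 12 muscle genes was 9991 on WASP-intact array 4 and 1043 to 1489 on the other 9. Over all genes tested, 0.331% were at least 1 above every other array on WASP-intact array 4. Neutrophil genes also had their highest sum there, 718 over 10 genes against 511 to 659 on the other arrays, with 5 of the 10 highest on it. All 10 had means under the filter value, the highest at 6.22, and 1 was at least 1 above every other array there. Ngp, a neutrophil granule gene named after its values were seen, was at 6.59 on that array. For cells other than muscle that also make Mef2c, the sum of 9 B cell genes was 763 against 583 to 864, and that of 15 endothelial genes 3869 against 3430 to 4412. Of the 9 B cell genes, 5 were under the filter value on all arrays. The part of any of these cells in the Mef2c level was not tested.

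**Figure D2:**
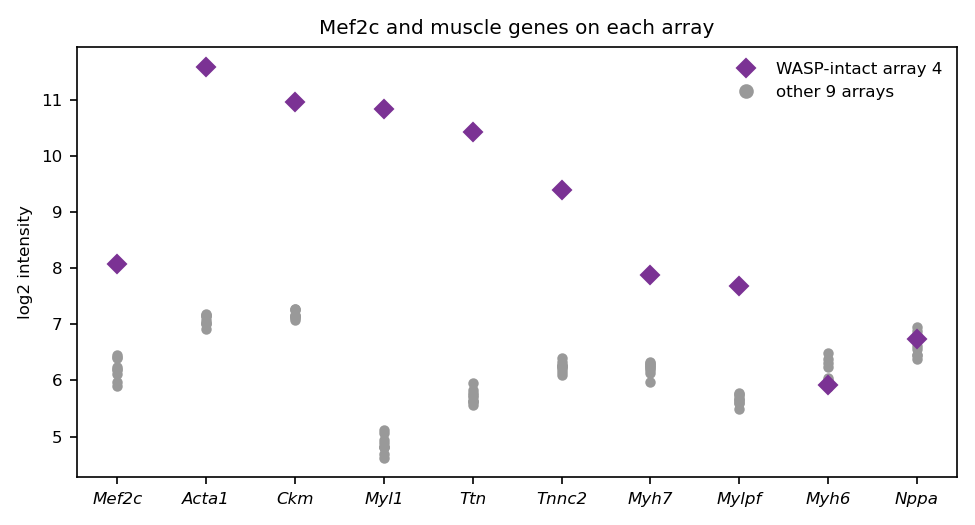
Level of Mef2c and 9 muscle genes, as log2 intensity, with WASP-intact array 4 as a purple diamond and each of the other 9 arrays as a grey point. Mef2c and the 7 genes from Acta1 to Mylpf are highest on array 4 by at least 1, while Myh6 and Nppa, genes of the heart, lie within the other arrays.

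The 4 dim homeobox genes lay within the range of the mean levels of the genes made in other organs, 4.10 to 7.51. The means of Tal1, Lyl1, Lmo1, Mef2c and Erg lay within it too, and only that of Lmo2, 7.75, was above it. Tlx1 lay between 5.33 and 5.49 on the WASP-intact arrays and between 5.40 and 5.77 on the WASP-deficient ones. Tlx3 lay between 5.95 and 6.32 and between 6.18 and 6.33. Hoxa9 lay between 5.40 and 5.70 and between 5.57 and 5.87. Hhex had the widest range of the 4, from 5.45 on WASP-deficient array 4 to 6.29 on WASP-deficient array 1, and Cd2-high and Cd2-low arrays overlapped for all 4 (not tested). The relatives in the HOXA cluster also had mean levels under the filter value, 5.37 for Hoxa3, 5.17 for Hoxa5, 6.33 for Hoxa7 and 5.73 for Hoxa10, although Hoxa7 was over it on 4 arrays. Meis1, a cofactor of Hoxa9, had a mean level of 5.67.

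No member passed the test for genotype. Of 12670 genes, 0.00789% passed limma at an adjusted p under 0.05, which was Was alone, and 0 of the 6 members tested passed (adjusted p = 0.999 for each). At an unadjusted p under 0.05 there were 0 of 6, against 2.89% of all genes, and the exact permutation test also gave 0 of 6. The genotypes overlapped for all 6, while 0.568% of all genes had arrays that did not, 0.324% with the WASP-deficient arrays higher.

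The intervals show how much the arrays allow. The difference was 0.01 for Tal1 (SE 0.088, 95% interval -0.19 to 0.20), 0.00 for Lyl1 (SE 0.10, interval -0.23 to 0.24) and 0.04 for Erg (SE 0.075, interval -0.12 to 0.21). It was -0.14 for Lmo2 (SE 0.11, interval -0.39 to 0.11). The Lmo2 difference was -0.061 without WASP-deficient array 5 and -0.024 with array weights, and that of Erg 0.0069 without WASP-deficient array 3. Over these 4 genes the 95% intervals reached from 0.763 times (Lmo2) to 1.18 times (Lyl1) the WASP-intact level. The means of Tal1, Lyl1 and Erg lay within the means of the genes of other organs (up to 7.51). Lmo2, at up to 8.0, stayed under the 8.03 that Csn2 of that list reached on its highest array. The bounds of all 4 therefore hold for the intensity and may not hold for the transcript. Mean levels were 6.90 ± 0.15 and 6.91 ± 0.08 for Tal1, 7.34 ± 0.12 and 7.35 ± 0.19 for Lyl1, and 7.82 ± 0.16 and 7.68 ± 0.19 for Lmo2 (WASP-intact and WASP-deficient, SD, n = 5 each).

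The differences of Lmo1 and Mef2c had wider intervals, and the levels of both varied more between tumours. Lmo1 was at 7.08 ± 0.87 in WASP-intact and 7.46 ± 0.55 in WASP-deficient tumours (SD, n = 5 each), a difference of 0.39 (SE 0.41, interval -0.52 to 1.29). WASP-intact tumours held 2 of the 3 Cd2-high arrays. With the Cd2-high arrays left out, the Lmo1 difference was -0.03 (SE 0.18), over 3 WASP-intact and 4 WASP-deficient arrays, and with the Cd2 class as a covariate it was 0.12 (SE 0.16). Mef2c was at 6.66 ± 0.81 and 6.14 ± 0.21, a difference of -0.52 (SE 0.33, interval -1.26 to 0.22). Without WASP-intact array 4 it was -0.16 (SE 0.13). The dim members, fitted with limma without the filter, differed by 0.09 for Tlx1, 0.07 for Tlx3, 0.02 for Hhex and 0.17 for Hoxa9, and 0 of them passed. The unadjusted exact two-sided permutation p for Hoxa9 was 0.05556, the smallest of the 10 members.

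**Figure D3:**
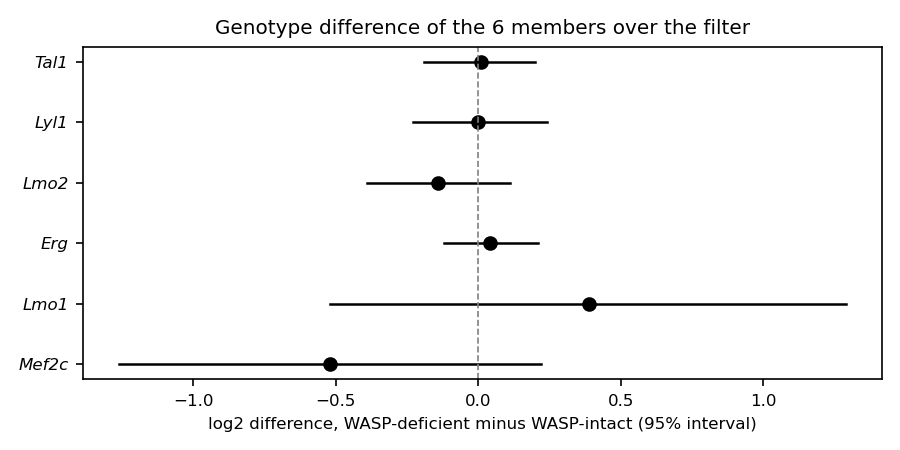
Difference of the 6 members over the filter, WASP-deficient minus WASP-intact on the log2 scale, with the point as the limma estimate and the line as its 95% interval (5 arrays per genotype). All 6 intervals span 0, narrowly for Tal1, Lyl1, Lmo2 and Erg and widely for Lmo1 (-0.52 to 1.29) and Mef2c (-1.26 to 0.22).

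The partners of the TAL1 and LMO2 complex were mostly bright, and none passed the test for genotype: 17 of 18 were tested, 0 passed limma in either direction, 0 had an unadjusted p under 0.05, and the median difference was -0.01 against -0.0038 over all genes. Ldb1, which holds LMO proteins in the complex, lay between 11.69 and 11.99, and the E protein genes Tcf3 and Tcf12 between 10.31 and 10.61 and between 12.23 and 12.51. Gata1 and Gata2, the GATA factors of the complex in blood progenitors, had means of 6.25 and 6.43, near the filter value, whereas Gata3, that of T cells, ran from 9.94 to 11.80 and Runx1 from 11.36 to 12.45. By Cd2, 4 of the 17 did not overlap (23.5%, against 30.5% of all genes). Fli1, an ETS relative of Erg, was higher on the Cd2-high arrays (10.32 to 10.63 against 9.13 to 9.97), as was Cbfb, the partner of RUNX1, by 0.05. Ssbp4, which binds LDB1, was lower (10.10 to 10.17 against 10.50 to 10.78). The fourth, Tcf12, was lower by a gap that rounds to 0.00, with 12.36 as the bound of both sets.

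Among the relatives of the members, 9 of 22 were tested and 0 passed limma, with 0 at an unadjusted p under 0.05 and a median difference of -0.001. By Cd2, 3 of the 9 did not overlap (33.3%, near the 30.5% of all genes), and the widest gap of the list was that of Ets2. Ets2, an ETS factor that answers to growth signals, was at 9.08 to 9.71 on the Cd2-high arrays and at 11.00 to 11.90 on the Cd2-low ones, a gap of 1.29 in the same direction as that of Lmo1. Pbx3, a homeobox cofactor of HOX proteins, was at 8.63 to 9.30 and 9.89 to 10.68, with a gap of 0.60, next to the 0.59 of Lmo1. Ets1 was slightly higher on the Cd2-high arrays, by 0.03.

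Of 18 early thymic progenitor genes and LMO2 targets, 14 were tested, 0 passed limma, 0 had an unadjusted p under 0.05, and the median difference was -0.08. By Cd2, 4 did not overlap (28.6%, against 30.5% of all genes), 3 of them higher on the Cd2-high arrays. Il7r, the interleukin 7 receptor that early thymocytes need, was at 10.05 to 10.98 on the Cd2-high arrays and 6.27 to 7.39 on the Cd2-low ones, opposite to Lmo1. Kit, the receptor for stem cell factor, was at 8.46 to 9.32 and 7.09 to 8.18, and Sox4, a factor of early lymphocytes, at 9.87 to 10.05 and 9.29 to 9.72. Gfi1b, a repressor of blood progenitors, was lower there, at 7.18 to 7.24 against 7.44 to 8.26. Among the members, Lyl1 and Lmo2 overlapped, with Cd2-high arrays toward the top of their range. Tal1 (6.82 to 7.13 against 6.73 to 6.99) and Erg (6.40 to 6.61 against 6.44 to 6.67) overlapped too. The share of all genes that lean as Lyl1 and Lmo2 did was not counted.

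**Figure D4:**
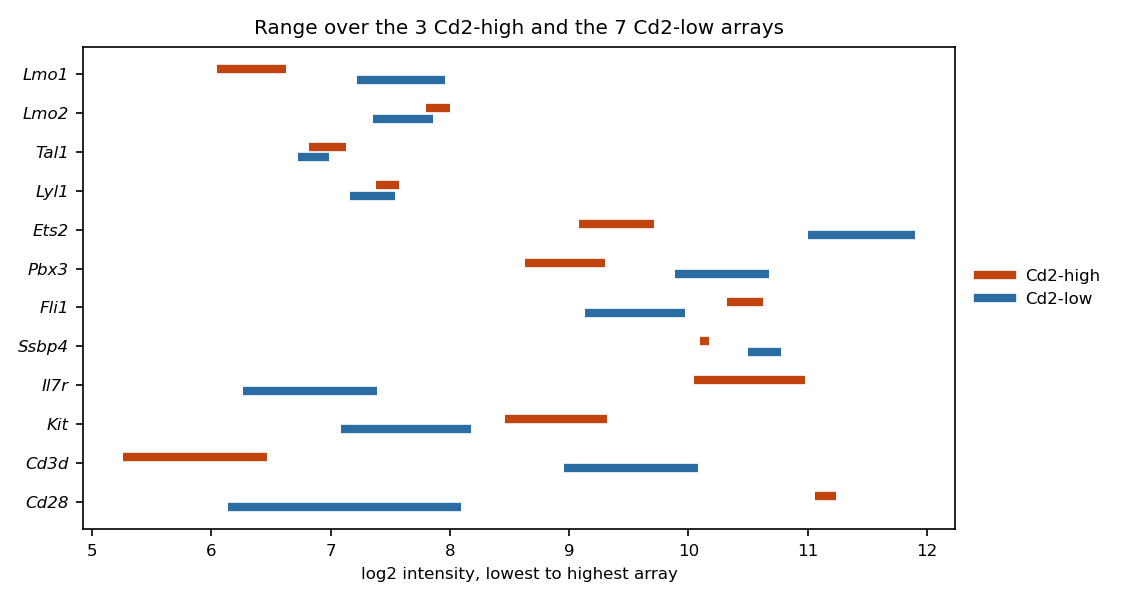
Range from the lowest to the highest array, as log2 intensity, over the 3 Cd2-high arrays (orange) and the 7 Cd2-low arrays (blue), for 4 members and 8 genes of the other lists; levels are to be compared within a gene. Lmo1, Ets2, Pbx3, Ssbp4 and Cd3d are lower on the Cd2-high arrays, Fli1, Il7r, Kit and Cd28 are higher, and Lmo2, Tal1 and Lyl1 overlap.

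Some genes of the T cell receptor complex followed the same split as Lmo1. Cd3d was at 5.26 to 6.47 on the Cd2-high arrays and 8.96 to 10.08 on the Cd2-low ones, and Cd3g at 6.29 to 10.24 and 11.45 to 12.23, both lower as Lmo1 was. Cd3e, of the same complex, overlapped at 12.29 to 12.59 against 12.06 to 12.38, and Cd247 overlapped too. Cd28, a costimulatory receptor, was higher, at 11.06 to 11.24 against 6.14 to 8.09. Of 11 T cell genes tested 2 were higher (Cd2 and Cd28) and 2 lower on all Cd2-high arrays (36.4%, against 30.5% of all genes). Cd2 made the split, so its place among them was fixed in advance. The summed intensity of the 12 with a probe set, Cd2 included, overlapped, at 17051 to 21803 on the Cd2-high and 13807 to 18886 on the Cd2-low arrays. Endothelial genes, markers of cells that also make Tal1, Lyl1, Lmo2 and Erg, summed to 3743 to 4027 on the Cd2-high and 3430 to 4412 on the Cd2-low arrays, with Egfl7 and Eng lower on the Cd2-high arrays by 0.22 and 0.14. By genotype, that sum was 3536 to 4379 in WASP-intact and 3430 to 4412 in WASP-deficient tumours. Erythroid and platelet genes, of cells that make Tal1, Lyl1 and Lmo2, summed to 2233 to 3172 and 1926 to 2617, macrophage genes to 7299 to 10115 and 6703 to 11707, and neutrophil genes to 511 to 718 and 529 to 659. Of the 8 erythroid and platelet genes tested, 3 had an unadjusted limma p under 0.05 (against 2.89% of all genes), and 0 passed after adjustment. Tfrc, the brightest at a mean of 10.47, weighed most in their sum and differed by -0.48. The other 2 went the other way, Pf4 by 0.73 and Ppbp by 0.72, with Ppbp dim at a mean of 6.41. The part of these cells in the level of the members was not tested.

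The genes whose profile was most like that of a member were found for the 2 tested members with an SD of at least 0.5, by the mean absolute difference between log2 levels centred on each gene's own mean over the 10 arrays. For Lmo1 they were Crip2, a small LIM-domain protein (0.13), E230001N04Rik (0.15) and H2-T10, an MHC class I-like gene (0.15). Crip2 was at 7.76 to 8.04 on the Cd2-high and 8.87 to 9.38 on the Cd2-low arrays. H2-T10 has near-identical neighbours in its family, so its probe set may read more than 1 gene. For Mef2c they were the muscle filamin Flnc, the muscle cytochrome oxidase subunit Cox6a2 and the slow myosin Myh7, at 0.14 each. All were highest on WASP-intact array 4, where they were at 8.38, 9.05 and 7.88. Without that array the mean of Myh7 was 6.21, under the filter value. The genes were chosen by likeness to Lmo1 or Mef2c, so the arrays on which they were low or high are no separate result.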

How the data were processed

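RNA from 10 primary lymphomas, 5 per genotype and 1 array each, was measured on an Affymetrix array. The authors deposited 1 table of intensity values, made with RMA per the submitters' processing notes; the values are linear (3.309 to 15587.9) although RMA gives log2 values, so log2 was taken. The sources used here name no software version, and an intensity without probe-level data leaves detection unknown.

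Of 34760 probe sets, 21640 carried 1 gene symbol in the platform annotation, 1321 several and 11799 none. The probe set with the highest mean stood for each gene. Those with a mean under the 40th percentile (log2 6.35) were left out, and limma 3.58.1 (R 4.3.3; lmFit, eBayes) tested the genotype with Benjamini-Hochberg adjustment at 0.05; the fit was tested on simulated data. The exact two-sided permutation test ran over the 10 arrays. Alternatives covered the filter, probe set, scale, normalization, model, covariates and each array left out. The members and lists were chosen with earlier results of these data known. The genes named were all members, Cd2, Was, list genes past the test or among the 4 widest Cd2 gaps, and the 3 genes most like each variable member. Cd3e, Cd247, Thy1, Xist, Ldb1, Tcf3, Gata1, Gata2, Gata3, Runx1, Meis1, the HOXA relatives and the muscle genes other than Acta1 were named after their values were seen. So were Csn2, Tfrc, Pf4 and Ppbp. Motif matches and promoter sequences came from RefSeq (GRCm38.p6).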

Additional observations from a re-analysis of the deposited data

Results flagged for a closer look

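Of 20 sets of 5 arrays (10 members in each genotype), 2 held an array apart from the other 4 by Dixon's criterion, against about 1 in 20 by chance. Mef2c was at 8.08 on WASP-intact array 4 and at 6.11 to 6.45 on the other WASP-intact arrays, where the gap took 0.825 of the range. On the same array 7 of 12 muscle genes were high, and the sum of the neutrophil genes, whose means were all under the filter value, was at its highest. The part of muscle cells or neutrophils in the Mef2c level was not tested. Tlx3 was at 5.95 on WASP-intact array 1 and at 6.21 to 6.32 on the other 4, a gap of 0.712 of the range, under the filter value on all of them.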

How the results depend on the processing

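Under 23 alternatives of the genotype fit, 0 members passed at an adjusted or an unadjusted p under 0.05 in any, and 189 of 212 recomputed values kept their direction and their side of the threshold (counts, within 1.5 times the reported one), though not always their size. The count of genes past the test, 1 as reported, was 0 with the replicate number as a block, 0 with the Xist class as a covariate, 2 with the Welch test and 2 without the Cd2-high arrays. Leaving out 1 array in turn gave 1 to 4, with 4 without WASP-intact array 3 and 2 without WASP-deficient array 1. The Lmo1 difference turned from 0.39 to -0.11 with array weights, to -0.031 without the Cd2-high arrays and to -0.054 with the Xist covariate; leaving out 1 array gave 0.13 to 0.60. Differences near 0 changed sign when 1 array was left out, from -0.034 to 0.065 for Tal1 and from -0.054 to 0.051 for Lyl1. The Mef2c difference ran from -0.65 to -0.13. That of Lmo2 ran from -0.19 to -0.02 and that of Erg from 0.01 to 0.09. The causes were not tested.

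Of the 2 members apart by Cd2, only Lmo1 remained (1) with each array centred on its median; leaving out 1 array gave 2 to 3. The number of members too dim to read, 4, became 0 with a filter value at the 25th percentile (5.55) and 7 at the 60th (7.59), where Tal1, Lyl1 and Erg joined. Same-numbered arrays did not deviate together: the correlation of their deviations ran from -0.714 to 0.366, and 1 of 5 WASP-intact and 0 of 5 WASP-deficient arrays correlated best with their own number. With 5 arrays per genotype, the interval for Lmo1 still held differences of up to 1.29, and the Xist class differed with genotype.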
